A study of Rattus norvegicus with 16 samples.

Results

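Ligation of the efferent ducts for 12 h was compared with a sham operation in the rat, in the initial segment, the part of the epididymis that the fluid from the testis reaches first. The comparison holds 8 of the 16 arrays of the series, the 4 titled as 12 h of ligation and the 4 titled as sham, chosen by title alone, with every probe set apart from the array's own control probe sets. All animals were adult male Sprague-Dawley rats. The ducts that carry testicular fluid were tied on 1 side, the opposite side of the same animal was sham-operated, and the piece of initial segment nearest the testis was dissected 6, 12 or 18 h later. Every sham tissue therefore came from an animal whose other epididymis was ligated. The sham arrays carry a time of 0 in the labels and 1 sham group serves all times, so the hours since surgery were not matched between 12 h and sham. Replicates are labelled as biological, with no animal given for a replicate number. The fit treats the arrays as independent, though some sham and 12 h tissues may come from the same animal. The p-values measure the spread between arrays within the groups, taken over all 16 arrays.

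The principal cells of the initial segment depend on factors that arrive with the testicular fluid, a mode of control called lumicrine. These factors keep the MEK and ERK kinases active, and ERK signalling in turn drives the ETS factors Etv1, Etv4 and Etv5 and its own inhibitors, the dual-specificity phosphatases and the Sprouty proteins. Loss of the fluid is known to be followed by death of part of the epithelium. STAT3 and NFKB are transcription factors that cytokines and tissue injury activate, and acute phase proteins, chemokines and interferon-linked genes are among their known targets.

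A level is a log2 value of 1 probe set on 1 array, and a gene is represented by its tested probe set with the highest mean over the 16 arrays. A difference is the mean at 12 h minus the sham mean, in log2 units, over 4 arrays a group. It is given ± limma's moderated SE, which takes the spread from all 16 arrays. A gene is said to rise or fall only at an adjusted p under 0.05 in limma's moderated test. Levels under 5 were not told from background, so a difference from or to a group mean under 5 is a lower bound on the change. Less RNA per cell and fewer cells of a type cannot be told apart in whole tissue.

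Of 8345 tested genes, 366 rose (4.39%) and 364 fell (4.36%), which makes 730 called genes (8.75%). These shares are the background for every list count below. Counted over probe sets, 1054 of 13410 were called (7.86%), 505 higher (3.77%) and 549 lower (4.09%). Large changes were more often falls: 169 fell and 146 rose by at least 2-fold, and 59 fell and 28 rose by at least 4-fold. Among all called genes, 40 rises from a sham mean under 5 and 33 falls to a 12 h mean under 5 are lower bounds. All 4 arrays at 12 h lay above all 4 sham arrays in 603 genes (7.23% of those tested) and below them in 477 (5.72%). Among the called genes this held for 325 of the 366 that rose and 306 of the 364 that fell. The median difference over all tested genes was 0.03. With the replicate number as a block, limma called 1709 probe sets, 903 of them higher, and without sham replicate 4 and 12 h replicate 1 in turn it called 626 and 675. Fitted on the 8 sham and 12 h arrays alone, with no share in the spread of the other groups, it called 477, and of 146 called genes named by rule or in the lists 72 lost their call. Those named are given with their adjusted p in each paragraph.

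**Figure D1:**
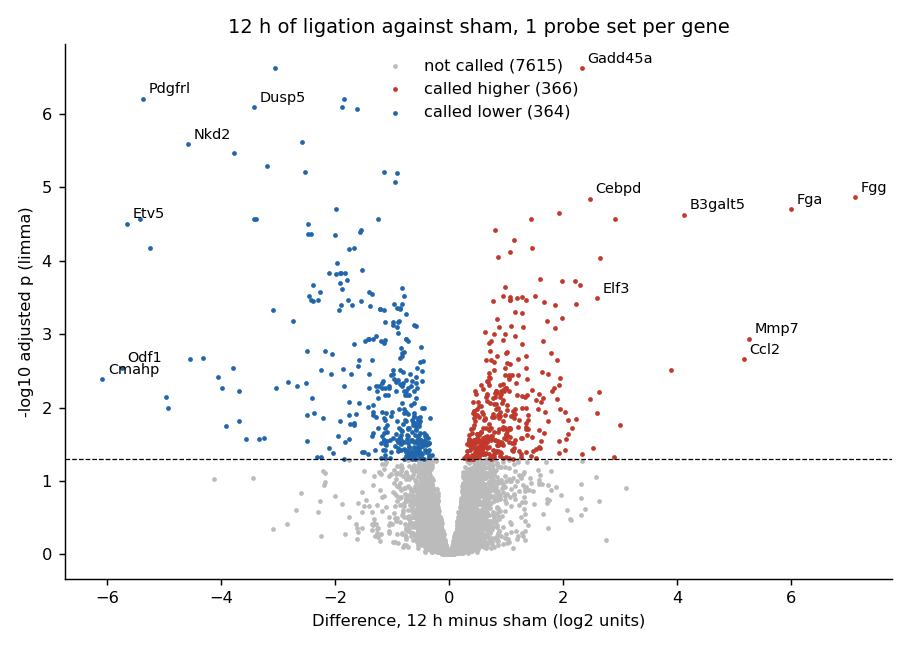
Each point is 1 of the 8345 tested genes, with the difference between 12 h and sham in log2 units on the x axis and -log10 of limma's adjusted p on the y axis. The dashed line is the threshold of 0.05. Red points are the 366 genes called higher and blue points the 364 called lower, with Fgg, Fga, Mmp7 and Ccl2 farthest to the right and Cmahp, Odf1 and Etv5 farthest to the left.

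The arrays divided between replicates 1 and 2 and replicates 3 and 4. A bacterial dap control transcript stood at 7.10 and 7.41 in sham replicates 3 and 4 and at the floor of 2.22 in the other 6 arrays. The dap level thus does not part 12 h replicates 3 and 4 from replicates 1 and 2. The labels give no array set, and the sets used here were inferred. They are replicates 1 and 2 of all groups, replicates 3 and 4 of sham and 6 h, and replicates 3 and 4 of 12 and 18 h. Within replicates 3 and 4 ligation and this inferred array set cannot be told apart. With the array set as a block, sham and 12 h arrays share a set only in replicates 1 and 2, and the fit also draws on the 6 and 18 h arrays. The 3' minus 5' level of Gapdh, a sign of RNA length, was 0.29 and 0.19 in 12 h replicates 3 and 4 and -0.10 to 0.15 in the other 6. Markers of the tissue were present, with 12 principal and other epithelial cell markers at mean levels of 10.05 to 10.30 in sham and 9.41 to 10.08 at 12 h. Limma called 0 of 12 macrophage, 16 fibroblast, 10 smooth muscle, 6 endothelial and 7 lymphocyte markers, with 1, 0, 0, 0 and 1 at an unadjusted p under 0.05. In replicates 1 and 2 alone 4 macrophage markers and 1 lymphocyte marker were called higher, and with the array set block 1 of each. The mean level of the macrophage markers went from 7.0 and 6.98 in sham to 7.63 and 7.92 at 12 h in replicates 1 and 2, and from 6.48 and 6.50 to 6.77 and 5.69 in replicates 3 and 4. That of the fibroblast markers was 8.42 to 9.99 in sham and 8.52 to 10.14 at 12 h, and 3 of the 16 were called higher with the replicate block. No member of the neutrophil and mast cell list reached the level needed for a test. What part these cells had in the changes below was not tested. Beside main results, the 2 values in brackets after "pairs" are the differences within replicates 1 and 2 and within replicates 3 and 4.

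Of 9 tested ERK phosphatases and feedback inhibitors 4 fell and 0 rose. The median difference was -0.44, against 4.36% falling and a median of 0.03 over all genes. Dusp5, a phosphatase that inactivates ERK in the nucleus, stood at 10.87, 11.13, 10.86 and 11.02 in sham replicates 1 to 4 and at 7.19, 8.01, 7.19 and 7.83 at 12 h. The groups lay far apart and the same fall appeared in both pairs of replicates (difference -3.42 ± 0.23, adjusted p = 8.16e-07; pairs -3.40 and -3.43). Dusp6, the cytoplasmic ERK phosphatase, stood at 9.11, 10.08, 10.09 and 11.18 in sham and at 7.55, 7.69, 7.92 and 7.63 at 12 h, with all 12 h arrays below all sham arrays (-2.42 ± 0.33, adjusted p = 0.000348). A further Dusp6 probe set was called at -3.23 and another was not, at -2.12 (adjusted p = 0.0978). Spry2, which restrains growth factor receptors, fell by 1.75 (adjusted p = 0.00841), and more in replicates 3 and 4 (pairs -1.07 and -2.43). The fourth was Spry1 (-0.66, adjusted p = 0.0218), whose call was lost without sham replicates 2 or 4 or 12 h replicate 4 (0.0543 to 0.0698) and with the array set block (0.0944). The calls on Spry2 (0.0973) and Spry1 (0.0891) were lost on the sham and 12 h arrays alone. Dusp1, the early phosphatase of stress kinases, was not called at 0.92 (adjusted p = 0.299), with 8.92 in 12 h replicate 3 against 6.29 to 7.44 in the other 12 h arrays.

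Among 13 tested ETS and related factors 3 fell and 3 rose. Etv5 stood at 8.45, 10.29, 9.09 and 10.02 in sham and at 3.00, 3.43, 5.66 and 3.19 at 12 h. Only 12 h replicate 3 stayed above the background limit, and the fall is a lower bound (-5.64 ± 0.57, adjusted p = 3.17e-05). Etv4 went from 10.64, 11.54, 11.46 and 11.75 to 7.20, 8.06, 8.62 and 9.21 (-3.08 ± 0.43, adjusted p = 0.000468). Etv1 was called lower at -1.99 ± 0.19, and its 3 other tested probe sets were called too, at -3.17, -2.84 and -2.31. Elf3 and Ehf, ETS factors of epithelia that are not of the Etv group, moved the other way. Elf3 stood at 5.99, 6.65, 6.18 and 6.09 in sham and at 8.77, 8.68, 8.79 and 9.02 at 12 h, with no overlap and little spread at 12 h (2.59 ± 0.34, adjusted p = 0.000326). Ehf rose by 1.95 ± 0.42 (adjusted p = 0.0104), with sham replicate 2 at 5.38 below the other sham arrays at 7.38 to 7.5. Ets2 was called at 0.49 (adjusted p = 0.0278), a call lost with the array set block (0.145) and without sham replicates 2, 3 or 4 or 12 h replicates 3 or 4 (0.0554 to 0.0825). The calls on Ehf (0.0915) and Ets2 (0.132) were lost on the sham and 12 h arrays alone.

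Of 6 tested FGF ligand, receptor and adaptor genes 1 was called. Fgf1, which encodes a ligand of all FGF receptors, stood at 9.70, 9.60, 8.93 and 9.29 in sham and at 6.99, 7.54, 6.69 and 6.79 at 12 h (-2.38 ± 0.30, adjusted p = 0.000214; pairs -2.38 and -2.37). Its other probe set was called as well, at -3.61. None of the 3 tested FGF receptors was called by limma, with Fgfr1 at -0.34, Fgfr2 at -0.46 and Fgfr3 at 0.41 (adjusted p = 0.477, 0.217 and 0.215), though 5 of the 6 genes had an unadjusted p under 0.05 and 1 was called higher with the replicate block. Of 7 EGF and ErbB genes 1 fell, Lrig1, a membrane protein that restrains ErbB receptors (-0.82 ± 0.16, adjusted p = 0.00495). Shc4, an adaptor of receptor tyrosine kinases, fell to 3.96, 2.82, 5.75 and 3.74 at 12 h, with replicate 3 above the background limit (-3.69 ± 0.73, adjusted p = 0.00605). The call on Lrig1 was lost on the sham and 12 h arrays alone (0.0658).

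Of 20 tested early response genes, which growth factors and stress switch on within minutes, 6 rose and 0 fell, with a median difference of 0.63. Egr1, a zinc finger factor, stood at 6.52, 8.12, 6.84 and 7.5 in sham and at 9.48, 8.89, 9.26 and 8.31 at 12 h, so that every 12 h array lay above every sham array (1.74 ± 0.32, adjusted p = 0.00348). Myc, a growth regulator, went from 3.99, 4.11, 4.07 and 4.55, all under the background limit, to 6.08, 6.27, 6.27 and 5.48 (at least 1.85 ± 0.28, adjusted p = 0.00082). Klf10 rose by 0.85 ± 0.10 (adjusted p = 9e-05), nearly alike in both pairs (0.85 and 0.84). Weaker calls were those on Zfp36, which speeds the decay of cytokine mRNA (0.98, adjusted p = 0.0189), on Nr4a1 (0.94, adjusted p = 0.0322) and on Jun (0.89, adjusted p = 0.0452). The call on Zfp36 was lost without sham replicate 3, 12 h replicate 1 or 12 h replicate 3 (0.0504 to 0.0642). That on Nr4a1 was lost without sham replicates 2, 3 or 4 or 12 h replicates 1 or 2 (0.0799 to 0.106). That on Jun was lost with the array set block (0.206) and without sham replicates 1, 3 or 4 or 12 h replicates 1, 3 or 4 (0.0607 to 0.134). The calls on Egr1 (0.0528), Zfp36 (0.102), Nr4a1 (0.0936) and Jun (0.138) were lost on the sham and 12 h arrays alone. Fos, which pairs with Jun, was not called at 1.62 (adjusted p = 0.111).

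**Figure D2:**
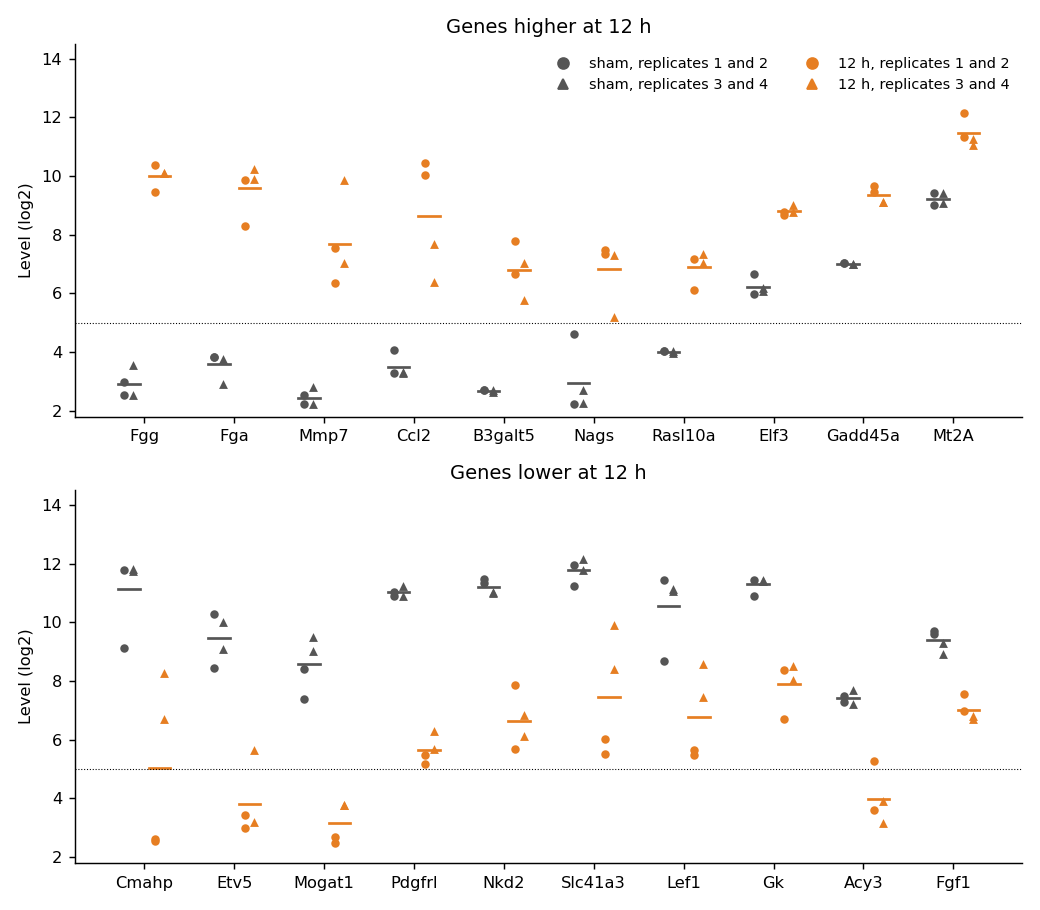
Each point is the log2 level of a gene on 1 array, grey for sham and orange for 12 h, with circles for replicates 1 and 2, triangles for replicates 3 and 4 and bars at the group means. The dotted line is the background limit of 5. The upper panel shows 10 genes called higher, among them Gadd45a with 4 sham arrays at 7.0 to 7.04, and the lower panel 10 genes called lower, among them Cmahp and Slc41a3, whose 12 h arrays divided between the pairs of replicates.

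Acute phase proteins held the largest rise of all named genes. Fgg, the gamma chain of fibrinogen, a clotting protein that the liver secretes in inflammation, stood at 2.99, 2.53, 3.55 and 2.53 in sham and at 9.45, 10.37, 10.10 and 10.12 at 12 h. The sham arrays were at background and the 12 h arrays within 1 log2 unit of each other, which makes the rise at least 138-fold (7.11 ± 0.64, adjusted p = 1.37e-05). Fga, the alpha chain, went from 3.83, 3.83, 3.77 and 2.93 to 8.31, 9.86, 10.24 and 9.90, at least 63.5-fold (5.99 ± 0.56, adjusted p = 1.99e-05). Its other probe set, at 2.65 in sham and 4.31 at 12 h, was under the background limit in both groups and was not called. The beta chain gene Fgb was not tested, because its level was too low. A2m, a protease inhibitor of plasma, rose by at least 2.99 ± 0.70 (adjusted p = 0.0173), a call lost if replicate 4 of either group was left out (0.0517 for sham and 0.0524 for 12 h). Cfi, which cleaves complement C3b, rose by 1.16 ± 0.25 (adjusted p = 0.0104). Of 16 tested acute phase and complement genes 4 rose and 0 fell (median 0.40), while C3 (-0.28), Clu (0.19) and Lcn2 (0.09), all abundant in sham, were not called (adjusted p = 0.776, 0.465 and 0.706). Lrg1, a plasma glycoprotein also made in inflammation, rose by 2.47 ± 0.51 (adjusted p = 0.00769), with 8.54, 7.24, 8.52 and 7.32 in sham and 10.80, 11.69, 8.83 and 10.17 at 12 h. The calls on Cfi (0.0636) and Lrg1 (0.0744) were lost on the sham and 12 h arrays alone.

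The promoter of Fga is shown because the gene lies beside Fgg on chromosome 2 and carries matches to motifs of the factors named above, in the 250 bases before the start of the gene (RefSeq, build GRCr8, chr2:170671919-170672168, plus strand). Capitals mark a STAT match (TTCNNNGAA) at bases -242 to -234 from the start and a C/EBP match (TTGCNNAA, here on the opposite strand) at -144 to -137.
Fga: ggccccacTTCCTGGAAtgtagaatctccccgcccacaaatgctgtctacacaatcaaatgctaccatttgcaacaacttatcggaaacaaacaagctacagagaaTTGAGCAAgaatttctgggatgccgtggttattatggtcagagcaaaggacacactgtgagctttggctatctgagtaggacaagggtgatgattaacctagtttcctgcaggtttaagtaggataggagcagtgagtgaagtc
A STAT match was found in 7.52% of the 27457 promoters of this length, searched on both strands, in 5.87% of those of the 7030 tested genes with a promoter, in 6.67% of the 300 that rose and in 5.94% of the 303 that fell. The C/EBP motif was found in 9.2%, 7.31%, 6% and 6.27% of the same groups. The promoter of Fgg (chr2:170652833-170653082, plus strand) held no match to any of the 8 motifs searched, and is shown as the neighbouring gene that rose most.
Fgg: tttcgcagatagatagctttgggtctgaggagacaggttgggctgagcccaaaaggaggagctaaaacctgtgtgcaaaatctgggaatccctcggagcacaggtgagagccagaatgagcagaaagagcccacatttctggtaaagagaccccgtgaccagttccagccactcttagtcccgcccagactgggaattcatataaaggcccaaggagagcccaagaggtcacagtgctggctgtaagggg
A match is a description of letters in this window and does not show a binding site.

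Of 18 tested genes of the IL-6 and JAK-STAT pathway 4 rose and 0 fell, with a median of 0.21, and 6 rose with the replicate block. Cish, a STAT-induced inhibitor of cytokine receptors, went from 3.98, 4.84, 5.0 and 4.67 to 5.59, 5.79, 5.47 and 5.79 (at least 1.04 ± 0.19, adjusted p = 0.00415). Stat2, a partner in interferon signalling, rose by 0.98 ± 0.18 (adjusted p = 0.00364), and every 12 h array lay above every sham array. Its other probe set was not called at 0.61 (adjusted p = 0.0682). Stat3 stood at 10.01, 10.06, 9.28 and 9.55 in sham and at 10.67, 10.85, 11.30 and 10.48 at 12 h (1.10 ± 0.30, adjusted p = 0.0375). This call was lost without sham replicates 3 or 4 or 12 h replicates 1, 2 or 3 (0.0689 to 0.115) and with the array set block (0.0599). The other Stat3 probe set was not called at 1.06 (adjusted p = 0.376). Pim3, a kinase gene that STATs induce, was called at 1.00 (adjusted p = 0.0227) but not without sham replicates 3 or 4 or 12 h replicates 1 or 2 (0.058 to 0.0722). The calls on Stat2 (0.0546) and Pim3 (0.102) were lost on the sham and 12 h arrays alone. The receptor subunits Il6st and Il6r were not called, at 0.21 and 0.82 (adjusted p = 0.527 and 0.119), and Socs3 was not tested for its low level. Cebpd, a transcription factor of the acute phase, had 5.33 to 5.65 in sham and 8.18, 8.30, 7.97 and 7.15 at 12 h, with no overlap (2.47 ± 0.23, adjusted p = 1.44e-05).

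In the list of NFKB subunits, inhibitors and targets 4 of 20 tested genes rose and 0 fell (median 0.22). Il1r1, the receptor for interleukin 1, stood at 6.96, 6.27, 6.09 and 6.46 in sham and at 8.80, 8.75, 7.58 and 8.05 at 12 h (1.85 ± 0.25, adjusted p = 0.000399). Bcl3, a nuclear partner of NFKB subunits, rose by at least 1.65 ± 0.34 (adjusted p = 0.00733), and Icam1, an adhesion molecule for leukocytes, by 1.35 ± 0.29 (adjusted p = 0.0102). Nfkbia, the inhibitor that NFKB induces against itself, rose least, from 8.18, 7.78, 8.23 and 8.31 to 8.84, 8.88, 8.77 and 8.56 (0.64 ± 0.13, adjusted p = 0.00718; 0.0537 on the sham and 12 h arrays alone). None of the 4 tested subunits of NFKB was called, and Tnfaip3, another induced inhibitor, was not called at 0.19 (adjusted p = 0.772). Ccl2, a chemokine that draws monocytes, stood at 3.29, 4.06, 3.31 and 3.29 in sham and at 10.03, 10.44, 7.69 and 6.40 at 12 h, higher in replicates 1 and 2 than in replicates 3 and 4 (at least 5.16 ± 0.88, adjusted p = 0.0022). Of 15 tested chemokine and cytokine genes it was the 1 called (6.67%, against 8.75% over all genes), though 5 rose with the replicate block. Ccl7 reached 8.65 and 8.26 in 12 h replicates 1 and 2 but 4.02 and 3.97 in replicates 3 and 4, and was not called (adjusted p = 0.124). The 12 macrophage markers had a median difference of 0.82 within replicates 1 and 2 and of -0.34 within replicates 3 and 4, and their part in the chemokine levels was not tested.

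The promoter of Nfkbia is shown because a match to the NFKB motif, searched by name on both strands, lies close to the start of the gene, at bases -31 to -22 (RefSeq, GRCr8, chr6:78597073-78597322, minus strand; the match in capitals).
Nfkbia: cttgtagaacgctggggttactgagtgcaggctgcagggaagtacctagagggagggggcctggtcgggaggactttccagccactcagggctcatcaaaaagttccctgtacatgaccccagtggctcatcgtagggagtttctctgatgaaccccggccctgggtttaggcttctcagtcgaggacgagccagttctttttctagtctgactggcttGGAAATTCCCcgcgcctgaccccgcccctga
The motif was found in 3.52% of all promoters of this length, in 4.08% of those of tested genes, in 6.67% of those that rose and in 2.97% of those that fell.

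Genes of the interferon response and of antigen presentation were called in 1 direction. Of 26 tested interferon-stimulated genes 7 rose and 0 fell, with a median of 0.60. Irf1, a transcription factor that interferon gamma and NFKB induce, had 8.23, 7.98, 8.17 and 7.98 in sham and 9.12, 8.90, 9.07 and 9.19 at 12 h, a small rise with little spread (0.98 ± 0.12, adjusted p = 0.000228). Igtp, an interferon-inducible GTPase, rose by 1.98 ± 0.29 (adjusted p = 0.000596; pairs 1.62 and 2.34), and its other probe set was not called at 1.90 (adjusted p = 0.0722). Gbp2, also a GTPase, rose by 1.12 ± 0.24 (adjusted p = 0.0111). Isg15, a ubiquitin-like protein, stood at 3.82, 3.97, 4.06 and 5.05 in sham and at 6.67, 6.18, 7.55 and 5.12 at 12 h, so the lowest 12 h array was close to the highest sham array (at least 2.16 ± 0.52, adjusted p = 0.0193). Leaving out sham replicates 2 or 3 or 12 h replicate 1 ended this call (0.052 to 0.0574). The other calls were those on Ifi35, Ifitm1 and Ifitm3, at 0.91, 0.59 and 0.75. Ifi35 lost its call without any array except sham replicate 1 and 12 h replicate 1 (0.0592 to 0.121) and with the array set block (0.0823). Ifitm1 lost it without any array except sham replicate 2 and 12 h replicate 4 (0.0792 to 0.119) and with that block (0.0565), and Ifitm3 without sham replicates 3 or 4 or 12 h replicates 1 or 2 (0.0687 to 0.0763). The calls on Isg15 (0.063), Ifi35 (0.127) and Ifitm1 (0.102) were lost on the sham and 12 h arrays alone.

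The 3 tested catalytic subunits of the immunoproteasome, which cut peptides for display on class I molecules, all rose. Psmb10 stood at 7.06, 7.0, 7.0 and 6.91 in sham and at 7.89, 8.46, 7.97 and 7.93 at 12 h (1.07 ± 0.12, adjusted p = 7.66e-05). Psmb9 rose by 0.95 ± 0.12 (adjusted p = 0.000304) and Psmb8 by 1.21 ± 0.22 (adjusted p = 0.0036), each without overlap of the groups. By contrast limma called 0 of 29 subunits of the constitutive proteasome, whose differences ran from -0.16 to 0.19 (0 at an unadjusted p under 0.05). Tap1, a transporter that feeds peptides to class I molecules, was called at 0.85 ± 0.23 (adjusted p = 0.0324), but not without sham replicates 1 or 2 or 12 h replicates 2, 3 or 4 (0.0507 to 0.102). Psme2, a proteasome activator subunit, was called at 0.63 (adjusted p = 0.0251), but not without sham replicates 2 or 4 or 12 h replicates 3 or 4 (0.0521 to 0.0698). The calls on Psmb8 (0.0568), Tap1 (0.171) and Psme2 (0.088) were lost on the sham and 12 h arrays alone. In all, 5 of 18 tested genes of antigen presentation rose and 0 fell (median 0.27). The class II genes in it were not called, with Cd74, the invariant chain of antigen-presenting cells, at -0.05 (adjusted p = 0.963).

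Tap1 and Psmb9 lie head to head on chromosome 20, and the windows before their starts overlap (Tap1 chr20:4668544-4668793, minus strand; Psmb9 chr20:4668750-4668999, plus strand; RefSeq, GRCr8). The Psmb9 window held no match to any of the 8 motifs searched, and the Tap1 matches lie outside the overlap. The Tap1 window is shown with an interferon-response element match (ISRE, GAAA and GAAA with 2 bases of any kind between them, here on the opposite strand) at bases -121 to -112 and an NFKB match at -55 to -46 in capitals.
Tap1: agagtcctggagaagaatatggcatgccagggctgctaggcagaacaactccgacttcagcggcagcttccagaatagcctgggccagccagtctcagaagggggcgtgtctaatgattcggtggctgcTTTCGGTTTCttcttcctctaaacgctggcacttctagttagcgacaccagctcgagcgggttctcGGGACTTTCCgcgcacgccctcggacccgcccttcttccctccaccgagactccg
The promoter of Irf1 (chr10:38417685-38417934, plus strand) is shown beside it, with a STAT match at -142 to -134 and an NFKB match at -65 to -56.
Irf1: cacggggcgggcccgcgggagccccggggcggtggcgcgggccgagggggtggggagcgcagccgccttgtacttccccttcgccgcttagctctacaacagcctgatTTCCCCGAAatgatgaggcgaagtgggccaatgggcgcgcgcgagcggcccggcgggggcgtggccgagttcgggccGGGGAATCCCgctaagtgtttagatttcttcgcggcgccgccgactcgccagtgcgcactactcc
The interferon-response motif was found in 3.29% of all promoters, 2.57% of those of tested genes, 5% of those that rose and 1.65% of those that fell.

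Of 19 tested p53 and growth arrest genes 5 rose and 0 fell, with a median of 0.09. Gadd45a, which binds cell cycle proteins after stress, stood at 7.04, 7.02, 7.01 and 7.0 in sham and at 9.65, 9.46, 9.13 and 9.12 at 12 h, with the smallest adjusted p of the comparison (2.32 ± 0.13, adjusted p = 2.42e-07). Sh3tc1, named after its values were seen, had the same p and went from 6.31, 6.28, 5.85 and 6.39 to between 3.09 and 3.29 (-3.06 ± 0.17). Gadd45g and Gadd45b, relatives of Gadd45a, rose by 1.66 ± 0.22 (adjusted p = 0.00037) and 1.32 ± 0.27 (adjusted p = 0.00711). Cdkn1a, the p21 inhibitor of cyclin-dependent kinases, had 6.78, 7.10, 6.22 and 5.47 in sham and 7.67, 7.39, 8.86 and 8.60 at 12 h, so most of its rise was in replicates 3 and 4 (1.74 ± 0.40, adjusted p = 0.0155; pairs 0.59 and 2.89). Its call was lost with the array set block (0.119), without sham replicate 4 (0.0546) and on the sham and 12 h arrays alone (0.0804). Sesn2, a stress-induced inhibitor of mTOR signalling, rose by 0.82 ± 0.16 (adjusted p = 0.00601). Mdm2 and Ccng1, both p53 targets, were not called, at -0.21 (adjusted p = 0.536) and 0.29 (adjusted p = 0.434).

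Of 13 tested BCL2 family genes 1 rose and 1 fell. Bcl2l11, which encodes the death-promoting protein BIM, stood at 4.77, 5.48, 6.22 and 6.26 in sham and at 6.80, 7.0, 7.54 and 6.96 at 12 h, above all sham arrays (1.39 ± 0.31, adjusted p = 0.0128; pairs 1.78 and 1.01). Bok, also death-promoting, fell from 9.33, 9.35, 9.23 and 9.35 to 8.45, 8.81, 8.62 and 8.51 (-0.72 ± 0.11, adjusted p = 0.00125), and its other probe set was called lower too. Bmf, another BH3-only gene, was not called at 1.43 (adjusted p = 0.105), nor were the survival genes Mcl1 (0.40, adjusted p = 0.204) and Bcl2l1 (0.16, adjusted p = 0.943). With the array set block 4 members were called higher. Among 17 caspase, inhibitor and execution genes (5.88% called, against 8.75% over all genes) Casp8 alone was called, lower (-0.61 ± 0.17, adjusted p = 0.0419). Its call was lost without sham replicates 2, 3 or 4 or 12 h replicates 1 or 4 (0.0883 to 0.131), while its other probe set fell by 1.17 (adjusted p = 8.51e-05). Tnfrsf14, a receptor of the TNF family, went from 6.98, 7.30, 6.75 and 6.96 to 3.94, 4.17, 3.94 and 3.16, a fall to background in all 4 arrays (-3.20 ± 0.26, adjusted p = 5.14e-06). Tnfrsf21, a death receptor, was called at 1.34 (adjusted p = 0.0409) but not without sham replicates 2, 3 or 4 or 12 h replicates 2, 3 or 4 (0.0773 to 0.122) or with the array set block (0.0664). Its other probe set was not called at 1.09 (adjusted p = 0.117). The calls on Bcl2l11 (0.0733) and Casp8 (0.0911) were lost on the sham and 12 h arrays alone.

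**Figure D3:**
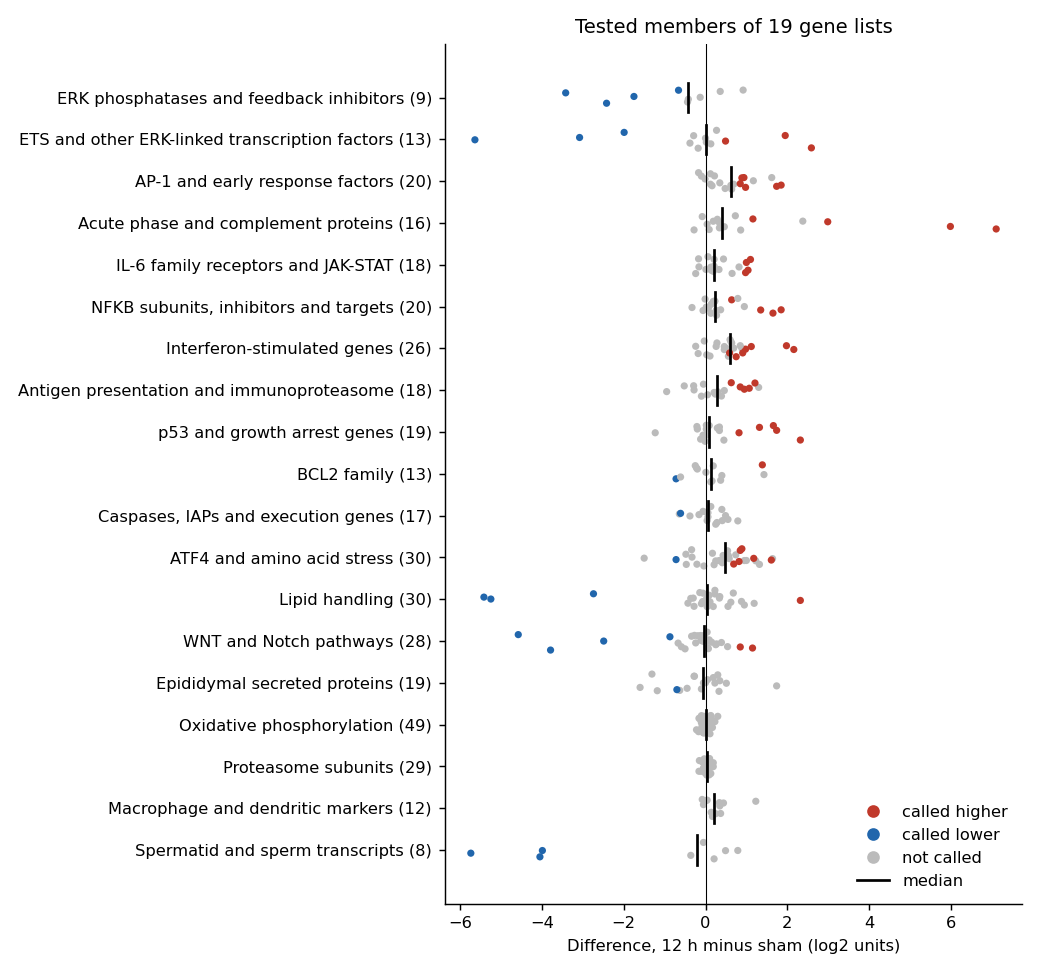
Each point is 1 tested member of a list, placed by its difference between 12 h and sham in log2 units, with the number tested in brackets. Red and blue points were called higher and lower, grey points were not called, and the bar is the list's median. The called members stand far from the median of most lists, and the 49 oxidative phosphorylation and 29 proteasome genes cluster around 0.

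Matrix and epithelial surface genes included some of the largest rises. Mmp7, an epithelial matrix protease, stood at 2.23, 2.54, 2.82 and 2.22 in sham and at 6.37, 7.54, 9.86 and 7.03 at 12 h (at least 5.25 ± 0.82, adjusted p = 0.00116). Adamts1, a secreted protease, rose by 1.55 ± 0.33 (adjusted p = 0.0106), and Adamts9 was called at 0.95 (adjusted p = 0.0184) but not without sham replicates 3 or 4 or 12 h replicate 1 (0.0609 to 0.0663). These were the 3 of 26 matrix protease and inhibitor genes that rose, with 0 falling and a median of 0.19, and 5 rose with the replicate block. Timp1, an inhibitor of matrix proteases, just missed the threshold at 2.32 (adjusted p = 0.0535), with 11.78, 12.13, 9.88 and 9.28 at 12 h against 7.93 to 9.85 in sham. B3galt5, a galactosyltransferase of surface glycans, went from 2.63 to 2.71 in sham to 6.67, 7.78, 5.76 and 7.02 at 12 h (at least 17.4-fold; 4.12 ± 0.40, adjusted p = 2.39e-05). Among junction genes Nectin3 rose by 1.08 ± 0.24 (adjusted p = 0.0129) and Cldn3 by 0.76 ± 0.16 (adjusted p = 0.00732). Of 31 such genes 3 rose and 1 fell (median 0.08), the others being Cldn4 (0.83) and Cldn1 (-0.87). Cldn4 lost its call without sham replicates 2, 3 or 4 or 12 h replicates 1 or 3 (0.0543 to 0.0969) and with the array set block (0.0762), and Cldn1 without sham replicates 1, 3 or 4 or 12 h replicates 3 or 4 (0.053 to 0.0731) and with that block (0.0504). Other Cldn1 probe sets were not called, at -0.60 and -0.98 (adjusted p = 0.319 and 0.291). The calls on Adamts9 (0.0547), Cldn4 (0.106) and Cldn1 (0.0703) were lost on the sham and 12 h arrays alone.

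Of 28 tested WNT and Notch genes 2 rose and 4 fell, with a median of -0.04. Nkd2, an inhibitor of WNT signalling, stood at 11.35, 11.47, 10.99 and 11.04 in sham and at 5.69, 7.86, 6.12 and 6.85 at 12 h (-4.58 ± 0.35, adjusted p = 2.62e-06). Lef1, a transcription factor of the WNT pathway, had 8.67, 11.44, 11.12 and 11.05 in sham and 5.47, 5.64, 8.59 and 7.44 at 12 h, where 12 h replicate 3 came close to sham replicate 1 (-3.79 ± 0.67, adjusted p = 0.00289). Hey2, a Notch target, fell from 6.93 to 7.31 in sham to 3.88, 4.10, 5.35 and 5.22 (-2.49 ± 0.41, adjusted p = 0.00169). Notch1, a receptor, rose by 1.15 ± 0.18 (adjusted p = 0.00105; pairs 0.79 and 1.51). The last 2 calls were Tcf7l1 at -0.87, lost without sham replicates 1, 3 or 4 or 12 h replicates 1 or 2 (0.0515 to 0.0804), and Porcn at 0.85, lost without sham replicates 1, 2 or 4 or 12 h replicates 3 or 4 (0.0583 to 0.12) and with the array set block (0.0617). The calls on Lef1 (0.0556) and Porcn (0.192) were lost on the sham and 12 h arrays alone. Axin2, a common readout of WNT signalling, was not called at 0.05 (adjusted p = 0.979), and neither was the Notch target Hes1 at 0.54 (adjusted p = 0.0596).

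Of 30 lipid handling genes 3 fell and 1 rose, with a median of 0.04. Mogat1, which acylates monoacylglycerol, went from 7.38, 8.40, 9.03 and 9.49 to 2.67, 2.47, 3.76 and 3.76, all at background (-5.42 ± 0.53, adjusted p = 2.68e-05). Mfsd2a, a transporter of lysophospholipids, had 5.80, 8.45, 8.70 and 8.86 in sham, with replicate 1 far below the others, and 2.51 to 2.79 at 12 h (-5.25 ± 0.58, adjusted p = 6.8e-05). Acsl1, which activates long-chain fatty acids, fell from 9.93, 11.93, 11.57 and 11.76 to 8.03, 7.92, 9.27 and 9.0 (-2.74 ± 0.40, adjusted p = 0.000664), and its other probe set fell by 3.05. Gk, glycerol kinase, went from 10.89, 11.45, 11.42 and 11.43 to 6.71, 8.37, 8.51 and 8.04 (-3.39 ± 0.34, adjusted p = 2.68e-05), and its other probe set was not called at -1.37 (adjusted p = 0.0685). The 1 that rose was Fabp5, a fatty acid binding protein, at 2.32 (adjusted p = 0.043), a call lost without any array except 12 h replicate 4 (0.0513 to 0.134). In cholesterol and fatty acid synthesis 5 of 31 genes rose and 1 fell (median 0.19). Fads1, a fatty acid desaturase, was called at 1.26 (lost without any array except sham replicate 1 and 12 h replicate 3, 0.0669 to 0.133) and Lss, which closes the sterol rings, at -0.51 (lost without any array except replicate 2 of either group, 0.0535 to 0.0921, and with the array set block, 0.119). The other 4 calls, on Acss2, Fasn, Acaca and Sqle, were likewise lost in 5 to 7 of the 8 fits without 1 array, with the array set block for Fasn (0.0664) and Sqle (0.162), and with the replicate block for Sqle (adjusted p = 0.0532). The calls on Fabp5 (0.138), Fads1 (0.103), Lss (0.0641), Acss2 (0.117), Fasn (0.102), Acaca (0.157) and Sqle (0.0959) were lost on the sham and 12 h arrays alone.

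Of 30 tested genes of the ATF4 and amino acid stress programme 6 rose and 1 fell (median 0.49), and 10 rose and 2 fell with the replicate block. Mthfd2, a mitochondrial folate enzyme, stood at 7.81, 6.49, 7.51 and 7.20 in sham and at 8.93, 8.94, 8.61 and 8.99 at 12 h (1.61 ± 0.33, adjusted p = 0.00837). Ddit4, an inhibitor of mTOR signalling, rose by 1.18 ± 0.16 (adjusted p = 0.000321). Calls on Wars1 (0.85), Phgdh (0.89) and Shmt2 (0.69) were weaker. The others were Sesn2, given above, and Slc6a9, a glycine carrier, which fell by 0.72 (adjusted p = 0.0121; 0.059 with the array set block). Wars1 lost its call without sham replicates 2 or 4 or 12 h replicates 1 or 3 (0.0529 to 0.0686), Phgdh without any array except sham replicate 1 (0.0509 to 0.111), and Shmt2 without any array except sham replicate 3 and 12 h replicate 4 (0.0747 to 0.107). The other Wars1 probe set was not called at 0.78 (adjusted p = 0.107). Slc7a11, the cystine transporter, split between the pairs, with 4.41 and 4.49 in 12 h replicates 1 and 2, 8.96 and 7.30 in replicates 3 and 4 and 4.40 to 4.90 in sham, and was not called (adjusted p = 0.278). In the folding list of the endoplasmic reticulum 0 of 35 genes rose and 1 fell (median -0.04, with 2.86% called against 8.75% over all genes). The 1 was Cdk2ap2 (-0.72, adjusted p = 0.0194), lost without sham replicates 3 or 4 or 12 h replicates 2 or 4 (0.0555 to 0.0688) and with the array set block (0.0791). The calls on Wars1 (0.0814), Phgdh (0.111), Shmt2 (0.102), Slc6a9 (0.0565) and Cdk2ap2 (0.095) were lost on the sham and 12 h arrays alone. Limma called 0 of 49 oxidative phosphorylation genes (1 at an unadjusted p under 0.05), with differences from -0.22 to 0.30.

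Of 30 tested hypoxia and glycolysis genes 4 rose and 3 fell, with a median of 0.15. Egln3, a prolyl hydroxylase that marks HIF for decay, went from 10.05, 9.02, 9.46 and 9.64 to 7.11, 7.61, 6.39 and 7.27 (-2.45 ± 0.32, adjusted p = 0.000304). Ndrg1, a stress protein abundant in sham at 12.98 to 13.24, fell by 1.19 (adjusted p = 0.00126), whereas Vegfa, an angiogenic factor, rose by 0.89 ± 0.18 (adjusted p = 0.00725). The other Vegfa probe set was not called at 0.90 (adjusted p = 0.124). With the replicate block 7 rose and 4 fell. The other calls were Slc2a1, a glucose transporter, at 0.69 (0.0519 without sham replicate 2), Tpi1 at 0.42, Pgam1 at 0.26 and Pfkfb4 at -1.33. Pgam1 lost its call in each of the 8 fits without 1 array (0.0589 to 0.152) and with the array set block (0.0559). Tpi1 lost it without sham replicates 2, 3 or 4 or 12 h replicates 3 or 4 (0.0554 to 0.106) and Pfkfb4 without sham replicates 3 or 4 or 12 h replicates 1 or 3 (0.0513 to 0.0714), and both with that block (0.148 and 0.0995). The calls on Slc2a1 (0.103), Tpi1 (0.129), Pgam1 (0.184) and Pfkfb4 (0.0613) were lost on the sham and 12 h arrays alone. Mt2A, a metallothionein that binds zinc and is induced by stress, stood at 9.0, 9.42, 9.09 and 9.42 in sham and at 11.33, 12.16, 11.07 and 11.26 at 12 h (2.22 ± 0.30, adjusted p = 0.000391). Slc39a14, a zinc importer, rose by at least 2.08 ± 0.47 (adjusted p = 0.0146).

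Several transporters fell from high levels in sham. Slc1a1, a glutamate and cysteine carrier, stood at 12.74, 12.69, 12.72 and 12.72 in sham and at 10.09, 11.29, 11.17 and 11.01 at 12 h (-1.83 ± 0.22, adjusted p = 0.000148), and its other probe set fell by 1.70. Aqp9, a channel for water and small solutes, went from 12.07, 12.97, 12.82 and 12.83 to 10.77, 11.08, 11.59 and 11.58 (-1.42 ± 0.22, adjusted p = 0.00116). Abcc4, an exporter of organic anions, had 10.42, 11.33, 11.35 and 11.43 in sham and 6.59, 7.49, 9.48 and 9.68 at 12 h, lower in replicates 1 and 2 (-2.82 ± 0.53, adjusted p = 0.00456; pairs -3.83 and -1.81). Slc41a3, a magnesium carrier, divided in the same way, from 11.22, 11.96, 11.78 and 12.15 to 5.51, 6.03, 9.89 and 8.42 (-4.31 ± 0.73, adjusted p = 0.00212; pairs -5.82 and -2.80). Slc52a3, a riboflavin transporter, fell from 6.75, 9.40, 9.25 and 9.27 to 2.47, 3.25, 6.71 and 4.10, and 12 h replicate 3 lay just under sham replicate 1 (-4.54 ± 0.77, adjusted p = 0.00221). Slc5a6, a vitamin transporter, moved the other way at 1.35 ± 0.31 (adjusted p = 0.016; 0.0555 without 12 h replicate 1). Of 30 tested solute carriers 4 rose and 2 fell (median 0.10), and of 26 acid-base and water transport genes 1 rose and 2 fell (median -0.07). The glutathione enzyme genes Ggt5 (-1.30, adjusted p = 0.0383) and Ggt1 (-0.60, adjusted p = 0.0434), the 2 of 25 in the glutathione list that fell, both lost their calls without sham replicates 2, 3 or 4 or 12 h replicates 1 or 2 (0.0922 to 0.124 and 0.0955 to 0.138). The share called in that list, 8%, was near the 8.75% over all genes. The other probe set of Ggt5 was called at -1.53. The calls on Abcc4 (0.0711), Slc5a6 (0.0715), Ggt5 (0.0906) and Ggt1 (0.164) were lost on the sham and 12 h arrays alone.

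Other genes named by the size of their change follow. Pdgfrl, a secreted protein related to PDGF receptors, stood at 11.04, 10.90, 11.25 and 10.91 in sham and at 5.17, 5.49, 6.28 and 5.67 at 12 h, with no overlap and group means 41.5-fold apart (-5.37 ± 0.34, adjusted p = 6.27e-07). Cmahp, a gene of sialic acid metabolism, had 9.13, 11.79, 11.73 and 11.83 in sham and 2.63, 2.56, 8.27 and 6.70 at 12 h, so the depth of its fall differed between the pairs of replicates (-6.08 ± 1.13, adjusted p = 0.00415; pairs -7.86 and -4.29). Acy3, an aminoacylase, fell to 3.61, 5.28, 3.90 and 3.16, with 12 h replicate 2 above the background limit (-3.43 ± 0.34, adjusted p = 2.68e-05). Cttnbp2, which binds cortactin, fell to between 3.10 and 4.34 (-3.78 ± 0.30, adjusted p = 3.47e-06). Rrp12, a factor of ribosome export, went from 10.20, 9.09, 9.76 and 10.12 to 7.63, 8.37, 7.74 and 7.81 (-1.91 ± 0.24, adjusted p = 0.000199), and its 2 other probe sets fell as well. Among the rises, Nags, which makes the activator of the urea cycle, went from 4.61, 2.22, 2.72 and 2.26 to 7.35, 7.47, 5.18 and 7.31 (at least 3.88 ± 0.69, adjusted p = 0.00311), and Rasl10a, a Ras-like GTPase, from 3.96 to 4.03 in sham to 6.13, 7.17, 7.04 and 7.33 (at least 2.90 ± 0.29, adjusted p = 2.68e-05). Rassf4, a Ras-binding protein, rose by 2.30 ± 0.29 (adjusted p = 0.000214) with both other probe sets called, and Fmo5, a flavin monooxygenase, by 2.21 ± 0.27 (adjusted p = 0.000189). Cpne8, a calcium-dependent membrane-binding protein, went from 4.14 to 4.62 in sham to 7.12, 7.17, 7.48 and 6.42 (at least 2.65 ± 0.30, adjusted p = 9.13e-05). Rasl11b, another Ras-like GTPase, rose more in replicates 1 and 2 (2.59 ± 0.57, adjusted p = 0.0119; pairs 3.62 and 1.56). Ryr3, a calcium release channel, was called at 2.89 ± 0.83 (adjusted p = 0.047), with 8.97 in 12 h replicate 3 and 4.73 in replicate 4. Its call was lost without any array except 12 h replicate 4 (0.0656 to 0.113) and with the array set block (0.201). The calls on Cmahp (0.0565), Rasl11b (0.0744) and Ryr3 (0.0934) were lost on the sham and 12 h arrays alone.

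Of 19 tested genes of epididymal secreted proteins 1 fell and 0 rose (median -0.05), near the 4.36% that fell over all genes, and 3 fell with the array set block. The 1 was Teddm1a, a membrane-linked epididymal protein, from 14.05 to 14.17 in sham to 13.28, 13.64, 13.20 and 13.59 at 12 h (-0.70 ± 0.14, adjusted p = 0.00675). Cst8, a cystatin of the initial segment, was at 12.22 to 13.54 in sham and at 13.20 and 13.08 in 12 h replicates 3 and 4, and lower in 12 h replicates 1 and 2. It was not called (pairs -1.97 and -0.38, adjusted p = 0.254). Of the 12 principal cell and epithelial markers 2 fell, Etv5 and Ggt1, both given above, and 3 fell with the replicate block or with the array set block. Epcam (-0.03), Krt8 (0.21), Krt18 (0.07) and Cdh1 (0.18), general epithelial genes, were not called (adjusted p = 0.934, 0.516, 0.875 and 0.57).

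Of 8 tested sperm and spermatid transcripts, which the fluid carries into the duct, 3 fell and 0 rose, with a median of -0.20. Odf1, a protein of the sperm tail, stood at 9.54, 7.20, 8.70 and 8.59 in sham and at 2.22, 4.40, 2.22 and 2.22 at 12 h (-5.74 ± 1.02, adjusted p = 0.00289). Prm1, a protamine, went from 9.65, 7.02, 9.15 and 9.82 to 4.96, 5.74, 4.75 and 3.98 (-4.05 ± 0.75, adjusted p = 0.00386). Smcp, a sperm mitochondrial protein, fell to background (-3.99 ± 0.77, adjusted p = 0.00542), a call lost with the array set block (0.0508). The mean level of the list was 6.22 to 7.42 in sham and 5.11 to 5.84 at 12 h. Akap3 and Odf2 were not called, at 0.21 and 0.49 (adjusted p = 0.91 and 0.163). Sham replicate 2 was the lowest sham array for Odf1, Prm1 and Smcp, at 7.20, 7.02 and 6.00.

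The arrays at 6 and 18 h place the 12 h values in time. Limma called 395 genes (4.73%) between 12 h and 6 h, 173 higher and 222 lower at 12 h, and none (0%) between 18 h and 12 h, where 877 probe sets had an unadjusted p under 0.05, the smallest adjusted p was 0.135 and the replicate block gave 2 calls. These comparisons use the same 12 h arrays as the one with sham. In replicates 3 and 4 the array set block groups 6 h with sham and 18 h with 12 h. There the array set and the step from 6 to 12 h cannot be told apart. With that block 779 probe sets were called between 12 h and 6 h, and 0 between 18 h and 12 h. Dusp6 had its whole fall at 6 h, with group means of 10.11, 7.41, 7.70 and 7.76 in sham and at 6, 12 and 18 h. Etv5 went through 9.46, 8.09, 3.82 and 5.10, and most of its fall lay between 6 and 12 h (-4.27 at 12 h against 6 h, adjusted p = 0.000935). Slc41a3 and Gk were still at sham levels at 6 h, with means of 11.85 and 11.09 against 11.78 and 11.30 in sham, and stood at 7.47 and 7.91 at 12 h (adjusted p against 6 h = 0.00415 and 0.000156). Among the rises, Psmb10 had means of 6.99, 6.97, 8.06 and 7.95, all of it after 6 h (1.09 against 6 h, adjusted p = 0.000193), and Egr1 7.25, 7.42, 8.99 and 9.45 (1.57 against 6 h, adjusted p = 0.0134). Fgg had part of its rise by 6 h, with means of 2.90, 7.12, 10.01 and 10.33. Gadd45a and B3galt5 had their highest means at 12 h, 9.34 and 6.81 against 8.62 and 5.05 at 18 h, but neither difference between 18 h and 12 h passed the test (adjusted p = 0.135 and 0.322).

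**Figure D4:**
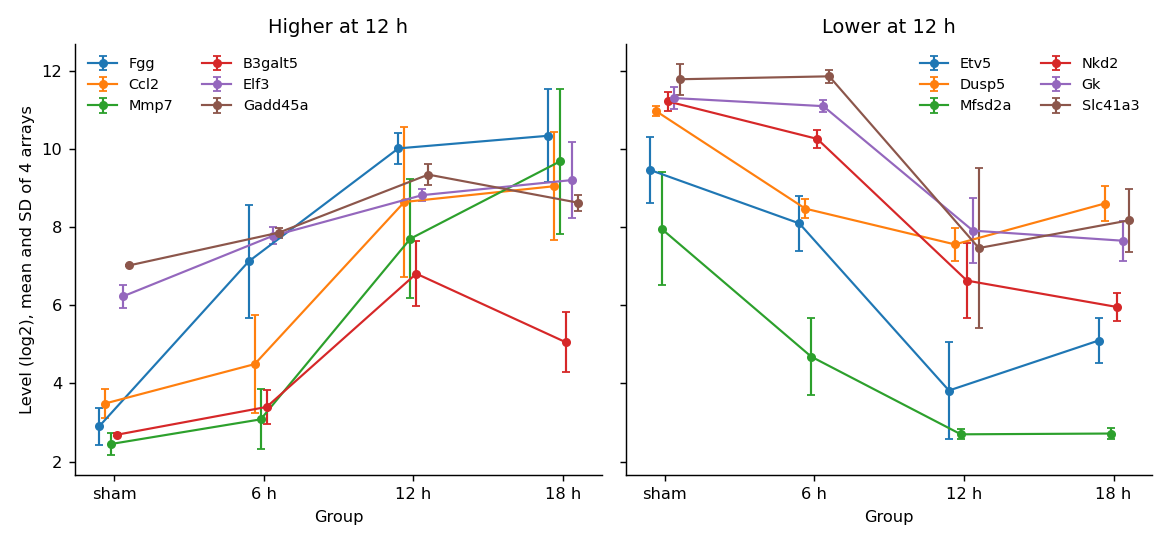
Points are group means of log2 levels with SD over 4 arrays, from sham through 6, 12 and 18 h, for 6 genes that rose at 12 h (left) and 6 that fell (right). Points are shifted sideways to keep the bars apart. Slc41a3 and Gk stayed level to 6 h and Dusp5 had dropped by then, and the wide bars of Ccl2 and Slc41a3 at 12 h span the 2 pairs of replicates.

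The change at 12 h differed between the pairs of replicates for a few genes. The difference of the changes, replicates 3 and 4 minus replicates 1 and 2, was called for 6 of 13410 probe sets (0.0447%), with 1571 at an unadjusted p under 0.05. Penk, which encodes proenkephalin and is abundant in the initial segment, stood at 13.12, 14.14, 13.98 and 13.91 in sham and at 10.69, 10.19, 13.88 and 13.98 at 12 h. It was low in 12 h replicates 1 and 2 and at the sham level in replicates 3 and 4 (pairs -3.19 and -0.01, adjusted p of the difference = 0.0276). Fabp7, a fatty acid binding protein, behaved alike, from 9.01, 10.64, 9.52 and 10.70 to 2.27, 2.26, 9.49 and 9.34 (pairs -7.56 and -0.69, adjusted p = 0.0274). Bcat1, which starts the breakdown of branched-chain amino acids, and Tgfbi, a matrix protein, were higher at 12 h in replicates 1 and 2 and nearer to sham or below it in replicates 3 and 4 (pairs 3.03 and 0.48, and 1.45 and -0.74; adjusted p = 0.0274 and 0.0144). Slc2a4, the insulin-regulated glucose transporter, had pairs of 1.25 and -0.05 (adjusted p = 0.0354), and Cadm4, an adhesion molecule, -0.05 and -2.50 (adjusted p = 0.0144). None of the 6 was called over all 4 replicates (adjusted p = 0.0947 to 0.811). The array sets and the marker levels of other cells differ between these pairs as well, and their parts in these differences cannot be told apart.

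**Figure D5:**
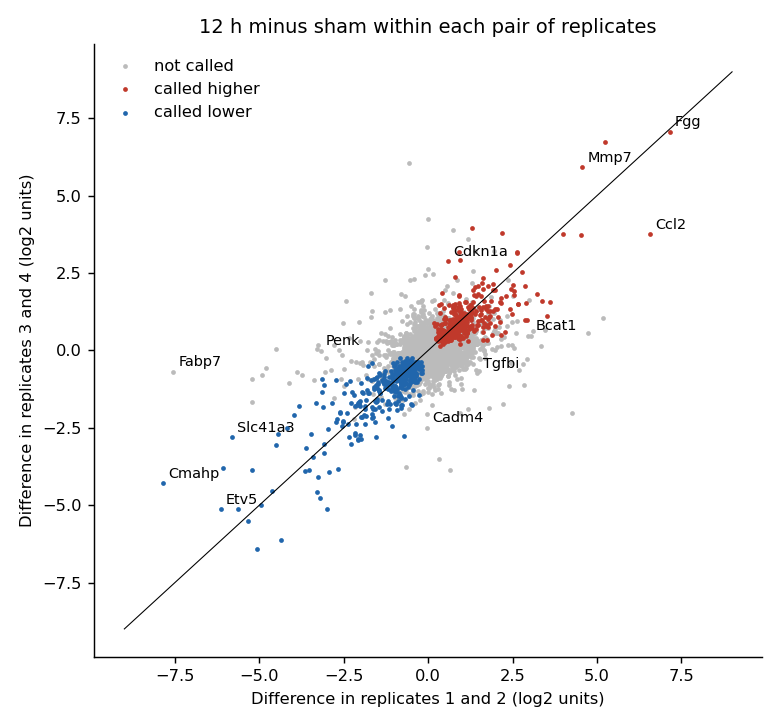
Each point is 1 tested gene, with the difference between 12 h and sham within replicates 1 and 2 on the x axis and within replicates 3 and 4 on the y axis, both in log2 units, and the line marks equal changes. All 366 genes called higher and all 364 called lower had the same sign in both pairs, which the call itself favours. Penk and Fabp7 lie at the left near 0 on the y axis.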

How the data were processed

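RNA of 16 initial segment samples, 4 each of sham and of 6, 12 and 18 h of ligation, was measured on Affymetrix rat arrays. The deposited values are on a log2 scale, 1 per probe set and array, made by the authors with GCRMA, which corrects background by probe sequence and normalizes by quantiles (the tool is named in the submitters' processing notes, without a version). Scanner files were not analysed here.

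Of 31042 probe sets without controls, those at or above 5 in at least 4 of the 16 arrays were tested (13410). Of the 31042, 20826 had 1 gene symbol in the platform annotation, 436 several and 9780 none, and only the first were named. Differences were fitted with limma 3.58.1 in R 4.3.3 (lmFit and eBayes, 4 group means over 16 arrays), with Benjamini-Hochberg adjustment over all tested probe sets and calls at an adjusted p under 0.05. The script was tested on simulated data. The number of arrays limits the precision. Array values ran from 2.22 to 15.1 and arrays correlated at 0.882 to 0.986 among the 8 compared.

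Named genes were the 20 that rose most and the 20 that fell most among those called without overlap of the groups. The pair interaction genes and up to 4 called members of each list with the largest differences were named too. Genes peaking at 12 h were to be named as well, but none qualified, because 0 genes were called between 18 h and 12 h. Called genes named by rule had 43 other tested probe sets, of which 43 changed in the same direction and 27 were called. Further members and probe sets were named after their values were seen. Members and lists were chosen with earlier results of these data known.

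The fit behind the printed calls holds no replicate block. Blocked values are given where they change a call or a count, because arrays of sham and 12 h with the same number had deviations from their group means that correlated at 0.206 to 0.446. The other number of the same pair of replicates gave 0.287 to 0.477, and the other pair -0.542 to -0.133, so the number and the pair cannot be told apart. The alternatives were blocks for the replicate number, the pair and the array set, each pair alone, each array left out, other normalizations, minimum levels and thresholds.

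Promoters of the 250 bases before the start were taken from RefSeq (GRCr8). Of the tested genes 7030 matched by symbol. In all 8 motifs were searched on both strands.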

Additional observations from a re-analysis of the deposited data

Results flagged for a closer look

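A single array stood apart from the other 3 of its group in 26 cases among the genes named by rule. Chance flags about 1 in 20 groups. Sham replicate 1 was the low array for 7 genes that fell at 12 h, with Abcc4 at 10.42 (others 11.33 to 11.43), Aqp9 at 12.07 (12.82 to 12.97), Cmahp at 9.13 (11.73 to 11.83), Gk at 10.89 (11.42 to 11.45), Lef1 at 8.67 (11.05 to 11.44), Mfsd2a at 5.80 (8.45 to 8.86) and Slc52a3 at 6.75 (9.25 to 9.40). Sham replicate 1 was the lowest sham array in 181 of the 364 genes that fell and the highest in 192 of the 366 that rose. Leaving it out kept the call on each of these 7 genes, an outcome favoured in advance because dropping a low sham value deepens a fall. Sham replicate 2 stood low for Cldn4 at 8.72, Ddit4 at 8.29, Slc5a6 at 7.13 and the lymphocyte gene Gzmb at 4.08, and high for Ccl2 at 4.06 and the endothelial gene Kdr at 7.81. Sham replicate 3 stood low for Bok at 9.23 and Tgfbi at 6.68.

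Sham replicate 4 stood low for A2m at 3.89, B3galt5 at 2.63, Fga at 2.93 and Rasl10a at 3.96, all below the background limit, where the other 3 arrays gave nearly the same value. At 12 h, replicate 3 stood high for Etv5 at 5.66 and for the nerve gene Th at 5.03, and low for Ccnd1 at 8.32, Mthfd2 at 8.61 and Nags at 5.18. Replicate 2 at 12 h stood high for Odf1 at 4.40 and Psmb10 at 8.46.

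The change at 12 h differed between the pairs of replicates in limma's interaction test for 6 genes. The change in replicates 3 and 4 minus that in replicates 1 and 2 was 6.86 for Fabp7 (adjusted p = 0.0274), 3.18 for Penk (0.0276), -2.19 for Tgfbi (0.0144), -2.45 for Cadm4 (0.0144), -2.55 for Bcat1 (0.0274) and -1.30 for Slc2a4 (0.0354).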

How the results depend on the processing

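Limma's fit called 1054 probe sets, 505 higher and 549 lower. Without a minimum level it called 653 (294 and 359), over more probe sets tested, and on the sham and 12 h arrays alone 477 (214 and 263), with fewer arrays to estimate the spread. The replicate block gave 1709, 903 of them higher, and the block for the pair of replicates 1735 (889 and 846). Array weights gave 2426 (1263 and 1163). Replicates 1 and 2 alone gave 617 (330 and 287), and replicates 3 and 4 alone 572, 200 of them higher. A 2-fold minimum left 481 (214 and 267) and an adjusted p under 0.01 left 440 (185 and 255). Leaving out 1 array gave 626 (without sham replicate 4) to 1079 (without sham replicate 1), with 302 to 516 higher and 324 to 563 lower between the same arrays. The total was 675 without 12 h replicate 1, and the count of higher calls was 327, 321 and 309 without sham replicate 2, sham replicate 3 and 12 h replicate 1. Between 12 h and 6 h 574 were called, 277 without a minimum level, 1166 with the replicate block and 1215 with the pair block. Between 18 h and 12 h 0 were called, and 2 with either block. The cause of these shifts was not tested. Of 125 called genes named by rule, 85 kept their call without each array in turn, the array set block ended 22 calls, the sham and 12 h arrays alone 55, no minimum level 41, and replicates 1 and 2 or 3 and 4 alone 55 and 72. The replicate block changed no call on a gene named by rule, and none of the settings run reversed the direction of a called one. Among the uncalled genes named by rule, the array set block turned Cadm4 from -1.27 to 0.11 and the fat marker Cfd from -0.40 to 0.31. Depth in reads does not apply to arrays, and levels under 5 limit 40 rises and 33 falls to lower bounds.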

Other observations

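The circadian list, 18 tested genes, had 3 rises and 3 falls with a median of -0.01 (33.3% called, against 8.75% over all genes). On the sham and 12 h arrays alone 2 rises and 0 falls were left. Per2, a repressor of the clock, stood at 7.35, 6.56, 7.02 and 7.26 in sham and at 6.51, 5.78, 5.75 and 5.43 at 12 h (-1.18 ± 0.22, adjusted p = 0.00458). Bhlhe41, another repressor, went the other way, from 8.78, 7.66, 8.36 and 8.17 to 9.46, 9.47, 9.76 and 9.73 (1.36 ± 0.25, adjusted p = 0.0041). The call on Per2 was lost on the sham and 12 h arrays alone (0.0523). The hour of day was not given in the labels read here and sham was not matched in time, so the part of the time of collection was not tested. Csnk1e, a clock kinase, was called at 1.35, a call lost without sham replicates 3 or 4 or 12 h replicate 1 (0.0605 to 0.0665) and with the array set block (0.0833). The other calls were Nfil3 at 1.10, Clock at -0.36 and Hlf at -0.66. They were lost in 6, 5 and 5 of the 8 fits without 1 array, and on the sham and 12 h arrays alone (0.0642, 0.111 and 0.139). Clock and Hlf also lost theirs with the array set block (0.105 and 0.233), and Hlf with the replicate block (0.0553).

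Among C/EBP and lineage factors, 10 tested genes, 2 rose and 1 fell. Bcl6, a repressor that STAT3 is known to induce, had 4.89 to 6.10 in sham and 7.55, 7.36, 7.91 and 6.57 at 12 h (1.93 ± 0.37, adjusted p = 0.00495). Runx1, a lineage factor, fell from 7.70, 8.17, 7.99 and 8.11 to 4.99, 6.01, 7.37 and 6.58 (-1.76 ± 0.39, adjusted p = 0.0126), and its other probe set was not called at -2.02 (adjusted p = 0.12). In the TGF-beta list, 25 tested genes, 1 rose and 1 fell (median 0.19). Id1, a BMP target, rose by 1.28 ± 0.26 (adjusted p = 0.00696), most in replicates 1 and 2 (differences of 1.73 and 0.83). Id4, a related inhibitor, was called at -1.12 (adjusted p = 0.0375), a call lost without sham replicates 2, 3 or 4 or 12 h replicates 1, 3 or 4 (0.0604 to 0.123), with the array set block (0.181) and on the sham and 12 h arrays alone (0.164). Of 18 heat shock chaperones 1 rose, the co-chaperone Bag2 (1.68 ± 0.37, adjusted p = 0.0115), and of 12 protease inhibitors 1 rose, Cstb, a cystatin (0.94 ± 0.18, adjusted p = 0.00476). The shares called in the TGF-beta, chaperone and protease inhibitor lists were 8%, 5.56% and 8.33%. All were near or below the 8.75% over all genes. In the cell cycle list, 17 tested genes with 2 rises and 2 falls, Pcna, the sliding clamp of replication, fell by 0.45 (adjusted p = 0.0101; 0.0531 with the array set block), and none of the 4 calls held with that block. Ccnd1, a cyclin gene, was called at -1.09 (adjusted p = 0.029), but not without sham replicates 2 or 4 or 12 h replicates 1 or 3 (0.0611 to 0.0783). Its other probe sets were called at -1.62 and -1.47 (adjusted p = 0.000214 and 0.00153). The calls on Runx1 (0.0811), Id1 (0.0579), Bag2 (0.074), Cstb (0.0631), Pcna (0.0695) and Ccnd1 (0.12) were lost on the sham and 12 h arrays alone.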
